A study of Mus musculus with 2 samples.

Results

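The cells described here were megakaryocyte and erythroid primed cells, found among mouse fetal liver progenitors that had been grown towards the T-cell lineage. They were chosen by their own transcripts. A cell barcode entered the set when *Pf4*, *Gp9*, *Gp1bb*, *Gata1* and *Klf1* together had at least 2 unique molecular identifiers (UMIs, 1 for each captured transcript), *Cd3g* had at most 1, and the 6 granulocyte genes *Elane*, *Ctsg*, *Prtn3*, *Ms4a3*, *Lyz2* and *S100a8* together had fewer than 10. Barcodes were first kept where they held 1500 UMIs and 500 genes or more and no more than 10% of their UMIs were mitochondrial. Of 5888 such barcodes, 94 met the rule (1.6%, exact 95% binomial interval 1.29 to 1.95). Library FL001 held 35 of 1788 (1.96%, 1.37 to 2.71) and library FL002 held 59 of 4100 (1.44%, 1.10 to 1.85).

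The study measured single-cell transcriptomes of in vitro T-cell differentiation, with the purpose of inferring gene regulatory networks from such data. Both 10x Genomics droplet libraries came from wild type CD1 mouse fetal liver at E13.5. Cells positive for TER-119, a surface antigen of maturing erythroid cells, had been depleted and the Sca-1+ cKit+ stem and progenitor cells sorted. The sorted cells were grown on plates coated with the Notch ligand DL4 at 10 µg/mL and the adhesion protein VCAM-1 at 2.32 µg/mL. The study's text describes freshly sorted cells and cells from more than 1 culture time, but the sources used here give no time for either library or for any cell, and no label says that the 2 libraries came from separate cultures or embryos. With 2 libraries that share 1 condition there is no contrast between samples to test. Every result below is therefore a description given for each library alone. The intervals cover counting error only.

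Megakaryocytes are the large marrow and fetal liver cells that shed platelets, and they share a progenitor with the erythroid lineage, which makes red blood cells. GATA1 and its cofactors act in both lineages, KLF1 drives the erythroid program and counters the megakaryocytic one, and the fetal liver is a main site of red cell production before birth.

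The genes that chose the cells were unevenly spread among them (the plot of rule gene UMIs in each cell). *Pf4*, which encodes platelet factor 4, a chemokine stored in platelet granules, had 1839 UMIs in 19 members of FL001 and 1185 UMIs in 27 members of FL002. In FL001 the single highest barcode held 1775 of the *Pf4* UMIs (96.5%) and the next members held 11, 9 and 6. In FL002 the 4 highest members held 361, 279, 206 and 182. *Pf4* was therefore very high in a few cells and at a handful of UMIs or 0 in the others. *Gp9* and *Gp1bb* encode subunits of the platelet von Willebrand factor receptor. *Gp9* was found in 25 and 40 members, with 57 and 89 UMIs in all and no member above 10. *Gp1bb* was found in 5 and 12 members, with 31 of its 38 UMIs in FL001 in the *Pf4*-highest barcode. The transcription factor gene *Gata1* had 22 UMIs in 11 members of FL001 and 47 UMIs in 30 members of FL002, and *Klf1* had 18 UMIs in 8 members and 23 UMIs in 14. No member held more than 5 UMIs of *Gata1* or more than 4 of *Klf1*. Barcodes with 1 to 100 UMIs, taken as empty droplets, stood at 83.8 and 21.4 CPM for *Pf4* (CPM, the UMIs of a gene in each 1000000 UMIs of a group), and the part of such free RNA in members with few *Pf4* UMIs was not tested.

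**Figure D1:**
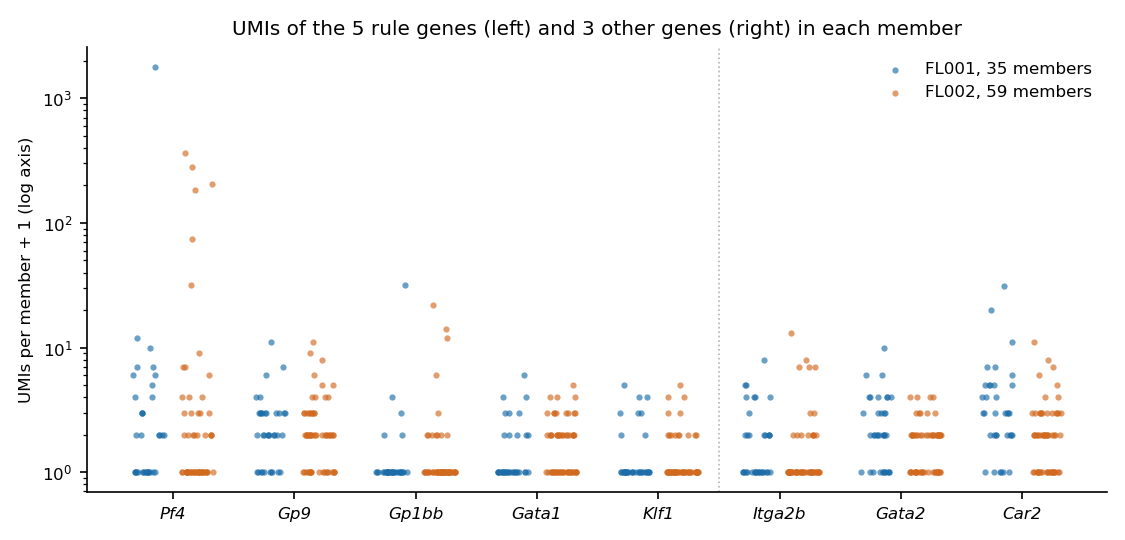
UMIs of the rule genes (left) and of *Itga2b*, *Gata2* and *Car2* (right) in each of the 35 members of FL001 and the 59 members of FL002, 1 point for each cell, plotted as UMIs plus 1 on a logarithmic axis. The highest *Pf4* point is 1775 UMIs in FL001, and in FL002 the 4 highest are 361, 279, 206 and 182, while *Gata1* does not exceed 5 UMIs in any member.

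The rule's lower limit passed through the densest part of the set. Exactly 2 rule UMIs were held by 15 members of FL001 and 26 of FL002, 3 or 4 by 8 and 16, and 5 or more by 12 and 17. Just outside were 87 and 132 barcodes with 1 rule UMI that met the other limits. A further 3 barcodes of FL001 reached 2 rule UMIs and were left out by another limit, 2 of them by *Cd3g* (5 and 12 UMIs, with 2 *Gata1* UMIs each) and 1 by the granulocyte limit. The last held 355 *Pf4*, 21 *Gp9* and 11 *Gp1bb* UMIs beside 17 UMIs of the granulocyte genes. In FL002 no barcode was lost this way. The barcodes left out by another limit stayed among all other kept barcodes in the comparison below.

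The members were of ordinary depth for their library. Their median was 7138 UMIs in FL001 against 7747 in the other kept barcodes, and 5138 UMIs in FL002 against 4745. The *Pf4*-highest barcode of FL001 stood apart, since its 27025 UMIs and 5173 genes made it the deepest kept barcode of that library and it supplied 10.2% of all member UMIs there. The second deepest member held 15512 UMIs. The *Pf4*-highest barcode also held 1 *Xist* UMI and 1 UMI of Y-linked genes, a pairing found in 2 of 35 members of FL001 and 1 of 59 of FL002 (5.71% and 1.70%), against 3.54% and 2.57% of the other kept barcodes. No member barcode occurred in both libraries, although 10 kept barcodes did. Whether any member droplet held more than 1 cell was not tested beyond a doublet caller that marked only 7 and 1 barcodes. The median doublet score of members lay at percentiles 51.8 and 26.5 of the kept barcodes of their library, against 29.3 and 18.9 for barcodes with *Lmo2* or *Mef2c* transcripts that serve as a comparison further on.

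The promoters of the platelet receptor genes and of *Pf4* are shown because GATA and ETS factors are known to act on megakaryocyte promoters. Each sequence is the 250 bases before the RefSeq start of the gene on GRCm38.p6, 5′ to 3′ on the strand of the gene. Capitals mark matches to AGGAAG, the core of the binding site of ETS factors such as FLI1. They also mark matches to AGATAA, the site of GATA factors. Both strands were searched, so that a match on the other strand appears in the lines below as CTTCCT for the ETS core and as TTATCT for the site of GATA factors. *Pf4* lies at chr5:90772185-90772434 (plus strand), *Gp9* at chr6:87777820-87778069 (plus strand), *Itga2b* at chr11:102469884-102470133 (minus strand) and *Gp5* at chr16:30310782-30311031 (minus strand).
*Pf4*: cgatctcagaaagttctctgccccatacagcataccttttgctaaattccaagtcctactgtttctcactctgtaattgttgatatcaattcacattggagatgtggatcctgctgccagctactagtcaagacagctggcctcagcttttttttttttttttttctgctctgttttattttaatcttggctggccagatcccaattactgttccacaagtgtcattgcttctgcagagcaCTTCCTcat
*Gp9*: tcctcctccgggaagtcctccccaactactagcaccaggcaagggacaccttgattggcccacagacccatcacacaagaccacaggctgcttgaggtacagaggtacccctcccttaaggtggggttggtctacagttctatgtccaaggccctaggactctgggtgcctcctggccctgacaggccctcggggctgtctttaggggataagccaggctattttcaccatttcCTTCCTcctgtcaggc
*Itga2b*: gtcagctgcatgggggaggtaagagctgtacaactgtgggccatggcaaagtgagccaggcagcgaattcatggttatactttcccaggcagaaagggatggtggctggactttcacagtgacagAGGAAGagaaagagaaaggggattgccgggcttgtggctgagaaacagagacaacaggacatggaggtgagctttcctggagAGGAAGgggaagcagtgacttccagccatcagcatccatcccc
*Gp5*: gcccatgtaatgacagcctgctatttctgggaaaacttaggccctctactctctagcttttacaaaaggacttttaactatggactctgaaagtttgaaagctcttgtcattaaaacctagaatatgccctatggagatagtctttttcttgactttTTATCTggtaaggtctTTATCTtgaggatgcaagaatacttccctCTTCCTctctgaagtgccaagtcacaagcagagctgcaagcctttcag
The AGGAAG match ended 4 bases before the start in *Pf4* and 11 bases before it in *Gp9*, both on the other strand. *Itga2b* held matches that ended 120 and 38 bases before the start, and *Gp5* held AGGAAG ending 43 bases before it and AGATAA ending 88 and 72 bases before it. Such matches are common. AGGAAG was present in 29.5% and AGATAA in 9.99% of 32851 promoters of the same length, and in 30.4% and 8.82% of the 102 promoters, of 68 genes, that could be matched among the genes higher in members than in all other kept barcodes. The promoters of all genes compared held them in 28.6% and 5.65%. A match is a description of the letters, not evidence of binding.

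The label was checked with *Itga2b*, the gene of integrin alpha IIb (CD41), an early megakaryocyte marker that the rule did not use. Levels are given as CPM, taken from the pooled UMIs of the cells in a group. *Itga2b* stood at 140 CPM in the FL001 members (98.4 to 193, 37 UMIs in 16 cells) and at 158 CPM in the FL002 members (117 to 209, 49 UMIs in 15 cells). All other kept barcodes stood at 24.6 and 22.3 CPM. The members were thus 5.68- and 7.12-fold higher, and the intervals did not overlap in either library. After every cell had been thinned to 1500 UMIs, *Itga2b* was found in 17.1% and 10.2% of members against 3.02% and 3.07% of the others. Unthinned, *Itga2b* was found in 18.2% and 11.5% of barcodes with at least 2 *Cd3g* UMIs, a T-cell group with median depths of 7732 and 4396 UMIs, and in 45.7% and 25.4% of members. The name held less well for some members than for others. In those with exactly 2 rule UMIs *Itga2b* stood at 18.4 and 30.9 CPM, from 2 and 4 UMIs (intervals 2.23 to 66.5 and 8.42 to 79.1), which include the 17.7 and 16.9 CPM of barcodes with no rule UMI, and in FL002 the 53 members with fewer than 20 *Pf4* UMIs stood at 44.2 CPM, 1.99-fold above the other kept barcodes. Several defining platelet genes, among them *Tubb1*, the tubulin of the platelet rim, had no UMI in the members of either library.

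The first comparison set the members against all other kept barcodes, 1753 in FL001 and 4041 in FL002. Of these, 1021 and 2382 held at least 2 *Cd3g* UMIs. The genes compared were those at 50 CPM or more in either group in both libraries, without the genes of the rule, and a gene was counted when it differed at least 2-fold the same way in both libraries. Of 3151 genes, 90 were higher in members (2.86%) and 111 were lower (3.52%). Within a library alone the shares at least 2-fold higher and lower were 5.95% and 6.38% in FL001 and 4.82% and 5.44% in FL002. The median log2 fold of all compared genes was -0.11 in FL001 and -0.02 in FL002. The members and the rest were split on transcripts of the same cells, so these folds describe the set and no test was made. A gene that reached 50 CPM only in the members had to be higher there. Of the 90 higher genes, 60 were under 50 CPM in the rest in at least 1 library and so entered through the members (22.9% of 262 such genes), and 30 were not (1.04% of 2889). Of the 111 lower genes, 92 entered through the rest in the same way (16.85% of 546) and 19 did not (0.729% of 2605).

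Among the highest folds were those of *Mfsd2b*, *Gnaz* and *Smim1* (the plot of folds in both libraries). *Mfsd2b*, the sphingosine 1-phosphate exporter of red cells and platelets, stood at 140 CPM in FL001 members and 97.0 CPM in FL002 members. This was 260-fold (119 to 645) and 81.4-fold (46.3 to 144) above the rest. *Smim1*, which encodes the Vel blood group protein, stood at 98.2 and 142 CPM, 60.8- and 103-fold above. *Gp5*, a further subunit of the platelet von Willebrand factor receptor, stood at 56.7 and 74.4 CPM, 33.7- and 156-fold above. The *Gp5* UMIs of the rest were 25 in 4 cells in FL001 and 10 in 10 cells in FL002. *Mfsd2b*, *Smim1* and *Gp5* are rare transcripts in the culture, so that the folds are large while the levels in the members are modest. *Tmem40* was 38.3- and 44.2-fold higher, *Rbpms2* 42.1- and 30.7-fold, *Samd14* 19.1- and 17.0-fold and *Smim5* 25.1- and 17.7-fold. With the member barcode richest in the gene left out, *Tmem40* was 21.35-fold and *Rbpms2* 17.9-fold higher in FL001. *Gnaz*, a G protein alpha subunit of platelets, was 74.9- and 226-fold higher, but 23 of its 24 UMIs in FL001 lay in 1 barcode.

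**Figure D2:**
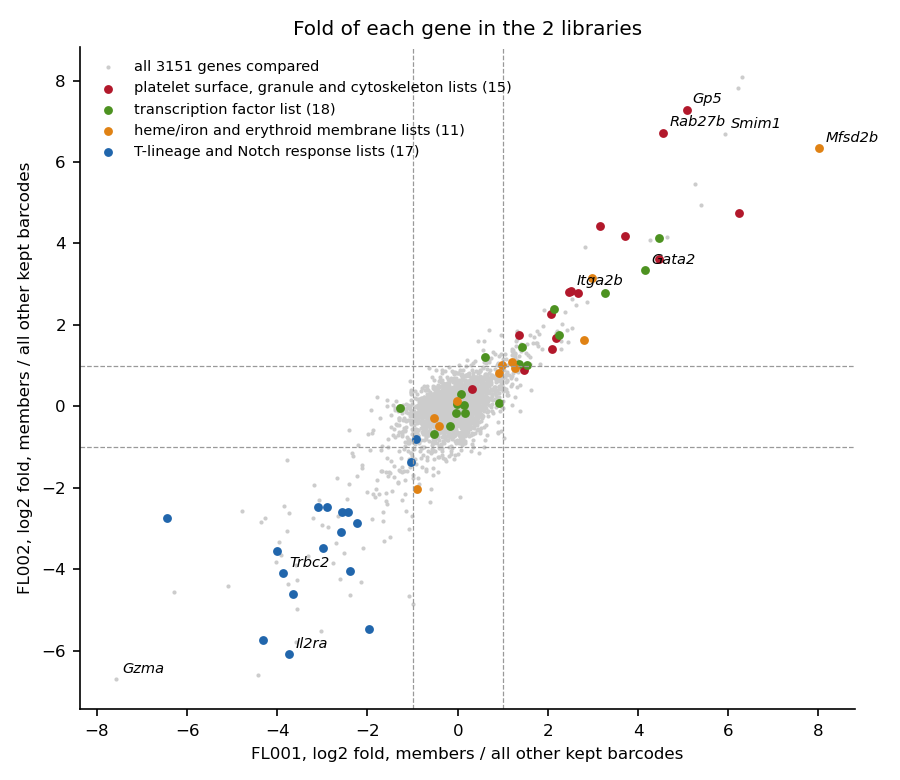
Log2 fold of CPM, members over all other kept barcodes, in FL001 (horizontal axis) and FL002 (vertical axis) for the 3151 genes compared, with genes of 4 groups of lists in colour and dashed lines at 2-fold. *Mfsd2b*, at 260- and 81.4-fold, and *Gata2*, at 17.9- and 10.1-fold, lie far into the upper right, and *Gzma* and *Trbc2* in the lower left.

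Genes of the platelet granule, cytoskeleton and signalling list followed. *Rab27b*, the GTPase of platelet dense granule secretion, stood at 121 and 226 CPM, 23.6- and 105-fold above the rest. In FL001 it was 6.58-fold above once the member barcode with most of its UMIs had been left out. *Plek*, encoding pleckstrin, a protein kinase C substrate of platelets, stood at 181 and 220 CPM (13.1- and 18.3-fold higher). In FL001 31 of its 48 UMIs lay in 1 barcode, without which it was 5.18-fold above the rest. *Sdpr*, now *Cavin2*, a coat protein of caveolae, stood at 132 and 55.0 CPM, and *Gucy1a3*, now *Gucy1a1*, a subunit of the nitric oxide receptor, at 140 and 84.1 CPM. They were 75.6- and 26.8-fold and 22.1- and 12.3-fold higher. Without the member barcode with most of its UMIs, *Sdpr* was 40.9-fold above the rest in FL001.

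A transcription factor gene with an early role was higher too. *Gata2*, which acts in stem cells and early megakaryocyte and erythroid progenitors, stood at 215 CPM (163 to 279) and 149 CPM (109 to 198), with a UMI in 24 and 33 members. It was 17.9- and 10.1-fold above the rest, and found in 2.06% and 3.82% of barcodes with at least 2 *Cd3g* UMIs. Of the 15 genes with the highest folds, 14 stayed at least 2-fold higher under every alternative that was tried, all but *Gnaz*. *Plek* and *Gata2* were among the 3 that also met the limit on CPM each time.

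The number of higher genes depended in part on a few cells. When the 7 members with at least 20 *Pf4* UMIs, 1 in FL001 and 6 in FL002, were left out, 57 genes were higher in place of 90, and 55 of these were among the 90. Leaving out for each gene its highest member barcode gave 56.

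*Gzma*, *S100a9* and T-cell receptor genes led the lower side. *Gzma*, granzyme A, stood at 18.9 and 22.6 CPM in members against 3624 and 2343 CPM in the rest, 192- and 104-fold lower. *Trbc2*, a constant region of the T-cell receptor beta chain, stood at 98.2 and 90.5 CPM against 1439 and 1555 CPM, 14.7- and 17.2-fold lower, although its reads may be shared with *Trbc1*. *Cd3d*, a CD3 chain encoded near *Cd3g*, had 0 UMIs in FL001 members and 1 in FL002 members. The 3 T-cell receptor gamma constant genes *Tcrg-C1*, *Tcrg-C2* and *Tcrg-C4*, which resemble one another, were also among the 15 lowest, as were *Lck*, *Il2ra* and *Cd160*. These genes are active in the same cells as *Cd3g*, which the rule limited in members. Of the 15 lowest, *Gzma* and *Trbc2* alone stayed at least 2-fold lower under every alternative.

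The second comparison set the members against 405 and 685 barcodes outside the set that carried at least 2 UMIs of *Lmo2* and *Mef2c* and at most 1 of *Cd3g*, with median depths of 8085 and 5657 UMIs. Both genes were left out of the comparison. Of 3113 genes compared, 71 were higher in members (2.28%) and 54 lower (1.73%), which compares with 4.93% and 3.89% in FL001 alone and 3.78% and 3.36% in FL002 alone, around a median log2 fold of -0.09 and -0.03. These barcodes were also chosen on transcripts, and no test was made.

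Against these progenitor transcripts *Itga2b* gave one of the larger differences. It stood at 9.38 and 5.69 CPM in the *Lmo2* or *Mef2c* barcodes, so that the members were 14.9- and 27.8-fold higher. Without the members that held at least 20 *Pf4* UMIs the folds were 13.46 and 7.76. *Blvrb*, biliverdin reductase B of the red cell, stood at 125 and 120 CPM in members and was 12.2- and 9.66-fold higher. *Tuba8*, an alpha-tubulin, was 11.6- and 8.92-fold higher. *Gata2* was 7.29- and 5.51-fold higher than in the *Lmo2* or *Mef2c* barcodes. Of the 15 leading genes of this comparison, 13 kept their 2-fold difference under every alternative, all but *Gnaz* and *Rab27b*. *Blvrb* was 1 of the 2 that also met the limit on CPM each time. The count of 71 was 39 without the members that held at least 20 *Pf4* UMIs, with 34 shared, and 44 where *Cd3g* had to be 0. That limit also removed the *Pf4*-highest barcode of FL001 from the members.

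**Figure D3:**
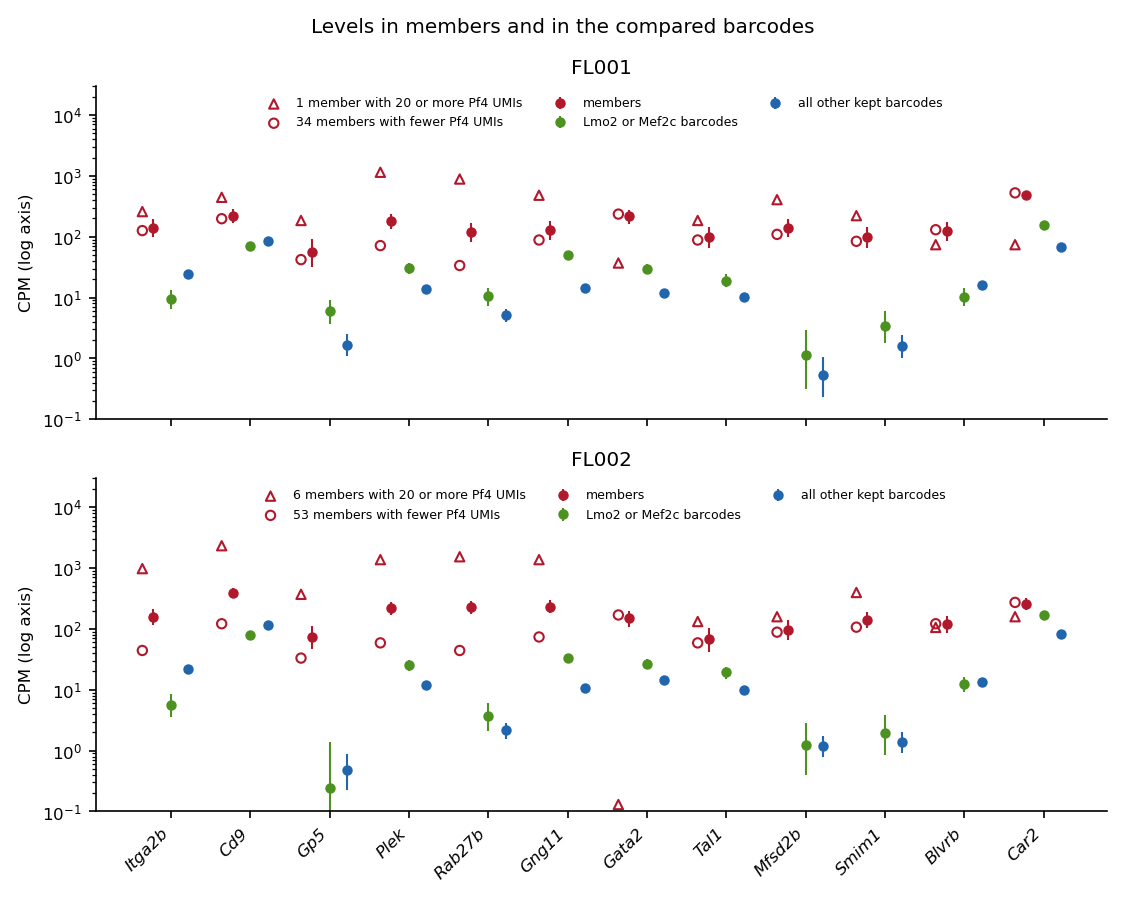
CPM of selected genes in members, in *Lmo2* or *Mef2c* barcodes and in all other kept barcodes, for FL001 and FL002, on a logarithmic axis with 95% Poisson bars, with open triangles for members with at least 20 *Pf4* UMIs and open circles for the other members. *Itga2b* is at 140 and 158 CPM in members against 9.38 and 5.69 CPM in *Lmo2* or *Mef2c* barcodes, and *Gata2* in FL002 members with at least 20 *Pf4* UMIs is at 0, drawn at the lower edge.

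On the lower side of this comparison were *S100a9*, *Irf8*, *Ighm* and *Mpo*. *Mpo*, myeloperoxidase, stood at 147 and 197 CPM in members against 1077 and 775 CPM, 7.31- and 3.93-fold lower. *Plac8* stood at 249 and 181 CPM against 1106 and 1066 CPM. *Irf8*, a factor of monocyte and dendritic cell development, had 1 and 3 UMIs in members and stood at 126 and 85.7 CPM in the *Lmo2* or *Mef2c* barcodes. *Spi1*, which encodes PU.1, was lower at 49.1 and 64.7 CPM against 132 and 185 CPM, and *Cd34* at 86.9 and 93.8 CPM against 273 and 271 CPM. *Tyrobp* and *Ccl3* were among the 15 lowest as well. Of these 15, *Trbc2*, *Plac8* and *Mpo* alone stayed at least 2-fold lower under every alternative. The limit on granulocyte genes applied to members and not to the *Lmo2* or *Mef2c* barcodes, and *Mpo* and *S100a9* are active in the same cells as those genes.

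The genes were then read as lists by role. Of 20 platelet surface genes, 5 reached 50 CPM in the first comparison, and these were at least 2-fold higher in both libraries (*Cd9*, *Itga2b*, *F2r* and *Gp5* among them), beside 2.86% of all genes compared. Only *Cd9* was at 50 CPM or more in the rest of both libraries. The other 4 entered through the members, so their direction was set by the limit and the count is read no further. Their median log2 fold was 2.46 and 2.80, beside the -0.11 and -0.02 of all genes compared. Against the *Lmo2* or *Mef2c* barcodes 4 of 5 were higher, beside 2.28%, and all but *Cd9* entered through the members (median 2.13 and 2.28, beside -0.09 and -0.03). Without the 7 members that held at least 20 *Pf4* UMIs 3 of the 5 had 2-fold higher levels in each comparison, but with the limit of 50 CPM kept 3 were compared and 2 were higher than in the rest and 1, *F2r*, than in the *Lmo2* or *Mef2c* barcodes. *Cd9* was then 1.05-fold and *Itga2b* 1.99-fold above the rest in FL002. Summed, the list stood at 1028 and 1086 CPM in members, 232 and 245 CPM in the rest and 251 and 212 CPM in the *Lmo2* or *Mef2c* barcodes. *Cd9*, a tetraspanin of platelets and of many other cells, stood at 223 and 391 CPM against 86.4 and 116 CPM in the rest.

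Of 32 platelet granule, cytoskeleton and signalling genes, 10 were compared and 8 were higher than in the rest, beside 2.86% of all genes, with 6 of 10 higher than in the *Lmo2* or *Mef2c* barcodes, beside 2.28%. Of the 8, 7 entered the comparison through the members and *Zyx* did not, and of the 6, 5 did and *Rgs18* did not. Beside *Rab27b*, *Plek*, *Sdpr* and *Gucy1a3* these 8 were *Rgs18*, *Ptgs1*, *Gng11* and *Zyx*. The median log2 fold of the 10 was 2.91 and 3.20 against the rest and 1.33 and 1.83 against the *Lmo2* or *Mef2c* barcodes. Their list summed to 3049 and 2696 CPM in members and 926 and 868 CPM in the rest. Without the members that held at least 20 *Pf4* UMIs 7 of 10 had 2-fold higher levels than the rest and 3 of 10 than the *Lmo2* or *Mef2c* barcodes, namely *Gucy1a3*, *Plek* and *Rab27b*. With the limit of 50 CPM kept 7 were compared in each, and *Rgs18*, *Ptgs1*, *Gng11* and *Plek* were higher than in the rest and *Plek* alone than in the *Lmo2* or *Mef2c* barcodes. *Zyx* was then 1.57-fold above the rest in FL002. *Tubb1*, *Dab2* and *Pstpip2* had no UMI in members of either library.

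Few erythroid membrane genes could be compared. Of 21 such genes 3 were compared and *Mfsd2b* alone was higher, beside 2.86% of all genes. It entered through the members, so its direction was set by the limit. The median log2 fold of the 3 was -0.52 and -0.30, beside -0.11 and -0.02 of all genes compared. The list summed to 884 CPM in FL001 members against 466 CPM in the rest and to 443 CPM in FL002 members against 612 CPM, so that the libraries went in opposite directions. Of the 234 UMIs of the list in FL001, 96 lay in 2 barcodes that were rich in globin, without which the sum was 533 CPM and *Cd24a* was lower than in the rest in both libraries. *Cldn13* had no UMI in FL001 members, and in FL002 members *Slc4a1* (band 3), *Rhag*, *Ank1*, *Sptb*, *Epb42*, *Add2* and *Cldn13* had none. Globin transcripts differed sharply between the libraries. FL001 members held 3160 globin UMIs, of which 2074 and 1079 lay in 2 barcodes of the *Klf1* class with 3466 and 2269 UMIs in all, and the 59 members of FL002 held 1. All other kept barcodes held 154 and 54 globin UMIs, and the empty droplets stood at 620 and 31.1 CPM. Free globin RNA was therefore more abundant in FL001, and its part in the lower counts of other cells was not tested.

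Of 19 heme and iron genes, 8 were compared and *Car2*, *Alad* and *Blvrb* were higher than in the rest, beside 2.86% of all genes (median log2 fold 1.09 and 0.98). *Blvrb* entered through the members. Without the 2 globin-rich barcodes *Car2* and *Blvrb* alone of the 8 were higher. *Urod* and *Blvrb*, 2 of 8 compared, were higher than in the *Lmo2* or *Mef2c* barcodes, beside 2.28% of all genes. Both entered through the members. *Urod* was higher neither without the 2 globin-rich barcodes nor without the members that held at least 20 *Pf4* UMIs. *Car2*, the carbonic anhydrase of early erythroid cells, stood at 480 and 259 CPM against 69.1 and 83.3 CPM in the rest, with a UMI in 29 and 37 members.

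Of 28 transcription factor genes of the 2 lineages, 18 were compared with the rest and 8 were higher (among them *Lmo2*, *Tal1*, *Gata2*, *Cbfa2t3*, *Meis1*, *Mef2c* and *Nfe2*), none lower, beside 2.86% and 3.52% of all genes compared, with a median log2 fold of 0.76 and 0.65. Of the 8, 4 entered through the members, and *Lmo2*, *Cbfa2t3*, *Mef2c* and *Nfe2* did not. Without the members that held at least 20 *Pf4* UMIs 6 were higher, and *Mef2c* and *Nfe2* were not among them. Against the *Lmo2* or *Mef2c* barcodes 3 of 16 were higher, *Tal1* and *Gata2* among them, beside 2.28% of all genes. Each of the 3 entered through the members. *Spi1* was lower, beside 1.73% of all genes, and entered through the *Lmo2* or *Mef2c* barcodes. *Tal1*, a partner of GATA1 in both lineages, stood at 98.2 and 67.9 CPM against 10.2 and 9.91 CPM in the rest. Of the genes of an erythropoiesis network that the study also modelled, 5 remained without the rule genes *Gata1* and *Klf1*, and 3 of the 5 were compared. *Gata2* was higher in both comparisons, with *Spi1* lower than in the *Lmo2* or *Mef2c* barcodes. Of 8 stem cell genes compared with the rest, *Meis1* was higher and *Cd27* lower, the latter at 0.514-fold in FL001 without the members that held at least 20 *Pf4* UMIs and so no longer counted. *Meis1* entered through the members and *Cd27* through the rest. Of 10 compared with the *Lmo2* or *Mef2c* barcodes none was higher, beside 2.28% of all genes. *Cd48*, *Cd34*, *Hoxa7*, *Hoxa9* and *Cd27* were lower, beside 1.73%, and all but *Cd48* and *Cd34* entered through the *Lmo2* or *Mef2c* barcodes. Among integrins that bind VCAM-1 or share their chains, *Itga6* was higher in both comparisons, 1 of 3 compared. The shares of all genes were 2.86% and 2.28%, and *Itga6* entered through the members in both comparisons. Without the members that held at least 20 *Pf4* UMIs it was counted in neither, at 2.54- and 1.98-fold above the rest and 1.80- and 1.33-fold above the *Lmo2* or *Mef2c* barcodes.

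None of 30 S phase and none of 33 G2 and M phase genes differed 2-fold in both libraries from the rest, beside the 2.86% higher and 3.52% lower of all genes compared. None of 32 and 34 differed from the *Lmo2* or *Mef2c* barcodes, beside 2.28% and 1.73%. With shares as small as these in the background, a count of 0 does not set such lists apart. Of 6 cyclin and inhibitor genes compared with the rest, 1 was higher and 1 lower, beside 2.86% and 3.52% of all genes. *Cdkn2d*, which encodes the cyclin-dependent kinase inhibitor p19, was 3.56- and 2.06-fold higher than in the rest and 3.67- and 2.32-fold higher than in the *Lmo2* or *Mef2c* barcodes. In FL001 26 of its 50 UMIs lay in the *Pf4*-highest barcode, without which it was 1.90-fold above the rest and 1.96-fold above the *Lmo2* or *Mef2c* barcodes in that library. Without the 6 members of FL002 that held at least 20 *Pf4* UMIs these folds were 1.504 and 1.691 there. Of 5 cytokine receptor and signalling genes compared with the rest, 1 was higher and *Socs2* was lower, beside 2.86% and 3.52% of all genes. The higher gene entered through the members. None of 4 differed from the *Lmo2* or *Mef2c* barcodes, beside 2.28% and 1.73% of all genes. *Cdkn1a*, encoding the inhibitor p21, stood at 71.8 and 45.3 CPM against 179 and 165 CPM in the rest. Being under 50 CPM in FL002 members, it entered through the rest.

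Markers of other cell types were counted in the same way. Of 12 T-lineage genes compared with the rest 11 were lower, beside 3.52% of all genes. Of the 11, 10 entered through the rest, so that their direction was set by the limit, and *Trbc2* did not. Of all genes that entered through the rest, 16.85% were lower. The list summed to 299 and 246 CPM in members against 3672 and 3591 CPM (median log2 fold -3.13 and -3.80). Of the 79 T-lineage UMIs in FL001 members, 25 and 24 lay in 2 cells, and in FL002 the highest member held 12 of 76. All 7 Notch response genes compared with the rest were lower (*Il2ra*, *Nrarp*, *Notch1*, *Dtx1*, *Myc*, *Hes1* and *Ptcra*), beside 3.52% of all genes. Their median log2 fold was -2.89 and -2.59. Each had entered through the rest, so that the direction was set by the limit and the count is read no further. Of all genes that entered this way, 16.85% were lower. The rule also limited *Cd3g* in members, and *Il2ra* is active in the same cells as *Cd3g*. *Notch1* and *Myc* were lower than in the *Lmo2* or *Mef2c* barcodes as well. *Myc* was near the limit. It was no longer counted against the rest without the 2 globin-rich barcodes, nor in either comparison without the members that held at least 20 *Pf4* UMIs (0.545- and 0.443-fold of the rest, 0.504- and 0.526-fold of the *Lmo2* or *Mef2c* barcodes). *Notch1* stood at 18.9 and 25.9 CPM in members, 140 and 144 CPM in the rest and 71.6 and 68.8 CPM in the *Lmo2* or *Mef2c* barcodes. The T-cell factor gene *Tcf7* differed between the libraries, at 52.9 CPM in FL001 members and 6.47 CPM in FL002 members, against 205 and 288 CPM in the rest. Of its 14 UMIs in FL001, 13 lay in 2 cells with exactly 2 rule UMIs.

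Lymphoid and myeloid markers outside the T lineage were read next. *Ighm* and *Satb1* were lower in both comparisons, and *Flt3* was lower than in the *Lmo2* or *Mef2c* barcodes, although at 0.508-fold in FL001 without the members that held at least 20 *Pf4* UMIs it was no longer counted. Each of these entered through the group that the members were compared with. Of 4 innate lymphoid genes *Nkg7*, *Gzma* and *Id2* were lower than in the rest, beside 3.52% of all genes, and *Gzma* and *Id2* entered through the rest. The other, *Gzmb*, stood at 102 and 107 CPM in members. Against the *Lmo2* or *Mef2c* barcodes *Gzmb* was higher and *Gzma* lower, beside 2.28% and 1.73% of all genes, and *Gzmb* entered through the members. Of 2 dendritic cell genes *Bst2* was lower than in the rest, through which it entered. Granulocyte and monocyte genes summed to 49 and 88 UMIs in members, of which *Mpo* gave 39 and 61, with *Cebpa*, *Cebpe* and *Csf1r* at 0. The 9 macrophage genes had no UMI in the members of either library, against 30 and 28 UMIs in the rest. Eosinophil genes were represented by *Siglecf* alone, at 4 and 1 UMIs.

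Mast cell and basophil genes, which share GATA2 with these lineages, summed to 1024 and 1089 CPM in members and 1033 and 937 CPM in the rest. *Srgn*, the proteoglycan core protein of many granules, was the most abundant of them at 695 and 705 CPM. None of 4 compared genes was higher than in the rest. *Cpa3*, a mast cell protease, and *Gzmb* were higher than in the *Lmo2* or *Mef2c* barcodes, beside 2.28% of all genes. Both entered through the members, so their direction was set by the limit. The defining genes *Ms4a2*, *Mcpt8*, *Prss34*, *Tpsb2*, *Tpsab1*, *Cma1* and *Cd200r3* had no UMI in members of either library. Of endothelial, stromal and hepatic genes 1 was compared with the *Lmo2* or *Mef2c* barcodes, and it did not differ 2-fold. *Dlk1*, found in fetal hepatoblasts and other fetal cells, had 15 and 14 UMIs.

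The 7 members with at least 20 *Pf4* UMIs, a limit set after the values were seen, were unlike the other members. *Rab27b* stood at 888 CPM in the 1 such barcode of FL001 and 1533 CPM in the 6 of FL002, against 33.7 and 44.2 CPM in the other 34 and 53 members. *Plek* stood at 1147 and 1374 CPM against 71.5 and 58.9 CPM. *Ppbp*, encoding the platelet basic protein chemokine, had 27 UMIs in the FL001 barcode and 15 UMIs in 2 of the FL002 cells, and none in any other member. *Vwf*, encoding von Willebrand factor, was found mostly in these cells as well, with 15 UMIs against 1 in FL001 and 10 against 3 in FL002. *Itga2b* stood at 259 and 978 CPM against 126 and 44.2 CPM, and *Cd9* at 444 and 2326 CPM against 198 and 122 CPM.

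*Gata2* had 1 and 0 UMIs in the members with at least 20 *Pf4* UMIs and 56 and 46 UMIs in the others. *Cd34*, *Spi1*, *Myb* and *Cpa3* had no UMI in the 7 cells, against 23 and 29, 13 and 20, 47 and 49, and 16 and 31 UMIs in the other members. In the other members *Gata2* stood at 236 and 169 CPM and *Myb* at 198 and 181 CPM. The upper 95% limit for 0 UMIs, from counting error only, is 136 CPM in the FL001 barcode and 97.5 CPM in the 6 FL002 cells. The zeros of *Spi1*, at 54.7 and 73.7 CPM in the other members, are within what depth alone allows. The intervals of *Myb* in both libraries and of *Gata2* in FL002 lay above that limit in the other members. These intervals leave out the spread between cells. *Myb* had a UMI in 19 of 34 and 29 of 53 other members, and *Gata2* in 33 of the 53 in FL002. Whether the zeros of 1 and 6 cells go beyond that spread was not tested. *Cd34* and *Cpa3* in FL002 stood at 107 and 114 CPM in the other members, with intervals that reach below the limit (71.5 to 153 and 77.6 to 162 CPM). *Mfsd2b* and *Smim1* were found in both groups, at 11 and 26 UMIs and 6 and 20 UMIs in FL001 and 6 and 24 UMIs and 15 and 29 UMIs in FL002.

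The members were divided by the rule genes into a platelet class, with at least 2 UMIs of *Pf4*, *Gp9* and *Gp1bb* and no *Klf1* (24 and 30 cells), and a *Klf1* class, with *Klf1* and at most 1 UMI of those 3 genes (7 and 11 cells). *Klf1* together with at least 2 UMIs of those 3 genes was found in 1 and 3 cells. The remaining 3 and 15 held *Gata1*, no *Klf1* and at most 1 UMI of those 3 genes. Some of them held only 1 *Gata1* UMI beside 1 UMI of *Pf4* or *Gp9*. Of 3202 genes compared between the first 2 classes, 90 were higher in the platelet class (2.81%) and 103 in the *Klf1* class (3.22%). The *Klf1* class rests on few cells, and no test was made. In FL001 it includes the second deepest member, which gave 15512 of the 51621 UMIs of the class. That cell held 1 *Klf1* and 1 *Pf4* UMI and 25 T-lineage UMIs, and no UMI of *Car2* or *Mfsd2b*. The pooled FL001 levels of the class are weighted by it.

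*Cd9* stood at 300 and 743 CPM in the platelet class and at 19.4 and 67.0 CPM in the *Klf1* class (15.5- and 11.1-fold). *Itga2b* stood at 191 and 294 CPM against 38.7 and 33.5 CPM. Without the members that held at least 20 *Pf4* UMIs *Cd9* was 14.2- and 3.08-fold and *Itga2b* 4.62- and 1.87-fold higher, and in FL002 37 of the 44 *Itga2b* UMIs of the platelet class lay in those 6 cells (the plot of the 2 classes). *Plek* stood at 251 and 428 CPM in the platelet class and had no UMI in the *Klf1* class of either library, at least 4.31- and 8.53-fold apart when 3 UMIs are taken as the floor. *Gucy1a3* was 9.84- and 9.20-fold and *Rab27b* 8.43- and 12.99-fold higher in the platelet class. In FL001 24 of the 30 *Rab27b* UMIs and 31 of the 46 *Plek* UMIs of that class lay in 1 barcode. Without the members that held at least 20 *Pf4* UMIs *Rab27b* was 1.98- and 1.87-fold higher, *Plek* at least 1.65- and 2.14-fold and *Gucy1a3* 7.58- and 3.21-fold. *Stk24*, *Tpm4*, *Ddrgk1* and *Prodh* were also among the 10 largest, although 33 of the 36 *Tpm4* UMIs in FL001 lay in 1 barcode.

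**Figure D4:**
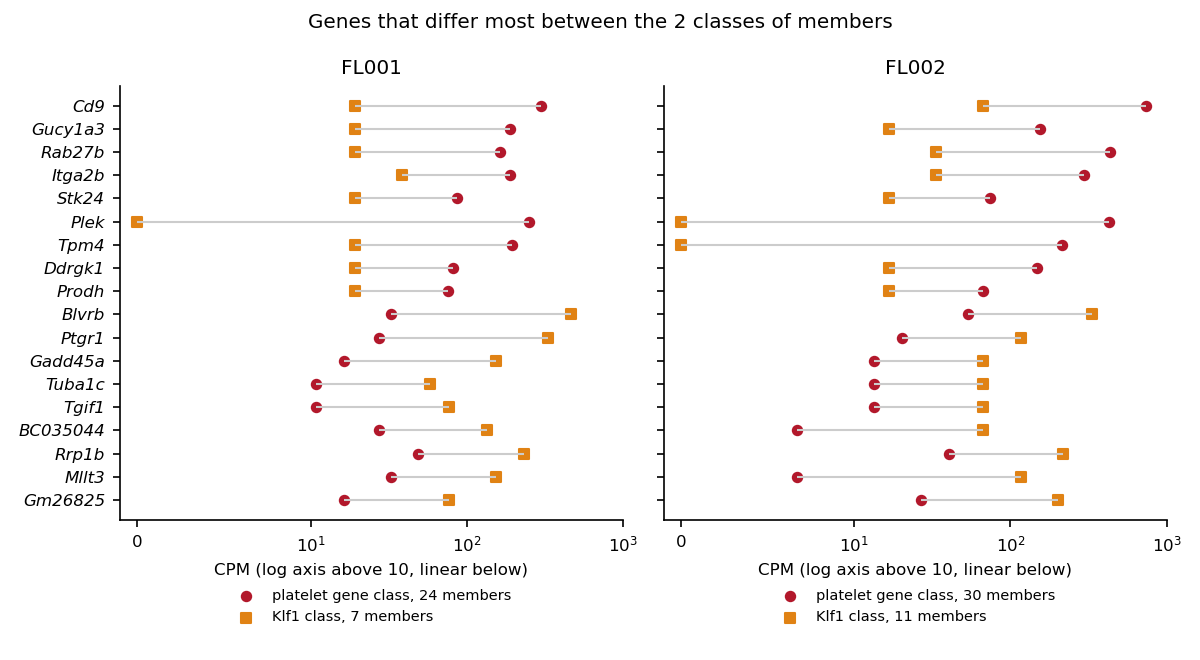
CPM in the platelet class (circles) and in the *Klf1* class (squares) for genes among the 10 with the largest difference each way, in FL001 and FL002, on an axis that is linear below 10 CPM and logarithmic above. *Plek* is at 0 in the *Klf1* class of both libraries, and *Blvrb* is at 465 and 335 CPM in the *Klf1* class and 32.7 and 53.5 CPM in the platelet class.

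*Blvrb* was higher with *Klf1* in both libraries. *Blvrb* stood at 465 and 335 CPM in the *Klf1* class and 32.7 and 53.5 CPM in the platelet class. *Car2* stood at 1220 and 435 CPM against 289 and 181 CPM. In FL001 49 of its 63 UMIs in the *Klf1* class lay in the 2 globin-rich barcodes, and without them *Car2* stood at 305 CPM, 1.06-fold above the platelet class. *Blvrb* was still 10.0-fold higher there without them. *Alas2*, the erythroid enzyme that starts heme synthesis, had 19 UMIs in 2 FL001 cells and none in any other member. *Ptgr1*, *Gadd45a*, *Tuba1c*, *Tgif1*, *BC035044*, *Rrp1b*, *Mllt3* and *Gm26825* were among the 10 genes highest in the *Klf1* class. In FL001 7 of the 8 *Gadd45a* UMIs of that class lay in the 2 globin-rich barcodes, without which it was 1.33-fold higher, while the other 7 genes stood 4.002- to 13.61-fold higher, from only 2 to 17 UMIs each in the *Klf1* class. Of the FL001 UMIs of that class, 14 of 17 for *Ptgr1* and 7 of 12 for *Rrp1b* lay in 1 cell. The same held for 5 of 8 for *Mllt3*, 5 of 7 for *BC035044* and 3 of 4 for *Tgif1* and for *Gm26825*.

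Some genes of the whole set did not differ 2-fold the same way between the classes in both libraries. *Mfsd2b* stood at 131 and 121 CPM in the platelet class and 194 and 134 CPM in the *Klf1* class. Without the *Pf4*-highest barcode of FL001 it stood there at 83.0 against 194 CPM, 2.33-fold higher in the *Klf1* class. *Gata2* went in opposite directions, at 251 against 77.5 CPM in FL001 and 107 against 218 CPM in FL002. The FL001 value of the *Klf1* class rests on 4 UMIs. In FL002 the intervals overlapped (61.2 to 173.9 and 115.9 to 372.1 CPM). Without the members that held at least 20 *Pf4* UMIs the FL002 levels were 143 against 218 CPM, 1.52-fold apart.

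Levels were finally read along the number of rule UMIs among barcodes that met the other limits (the plot of levels by rule UMIs). Barcodes with 0, 1, 2 and 3 or more numbered 574, 87, 15 and 20 in FL001 and 1462, 132, 26 and 33 in FL002. *Itga2b* was at 17.7, 15.7, 18.4 and 224 CPM in FL001 and at 16.9, 16.3, 30.9 and 250 CPM in FL002. Its higher level thus belonged to the members with 3 or more, and in FL002 mostly to those with at least 20 *Pf4* UMIs, without which the last value was 56.3 CPM. *Plek* was at 19.2, 28.6, 27.6 and 289 CPM and at 19.7, 25.9, 46.4 and 345 CPM, and without those members at 109 and 70.4 CPM in the last step. *Mfsd2b* was at 0.883, 4.28, 0 and 237 CPM and at 1.67, 9.53, 38.6 and 139 CPM.

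**Figure D5:**
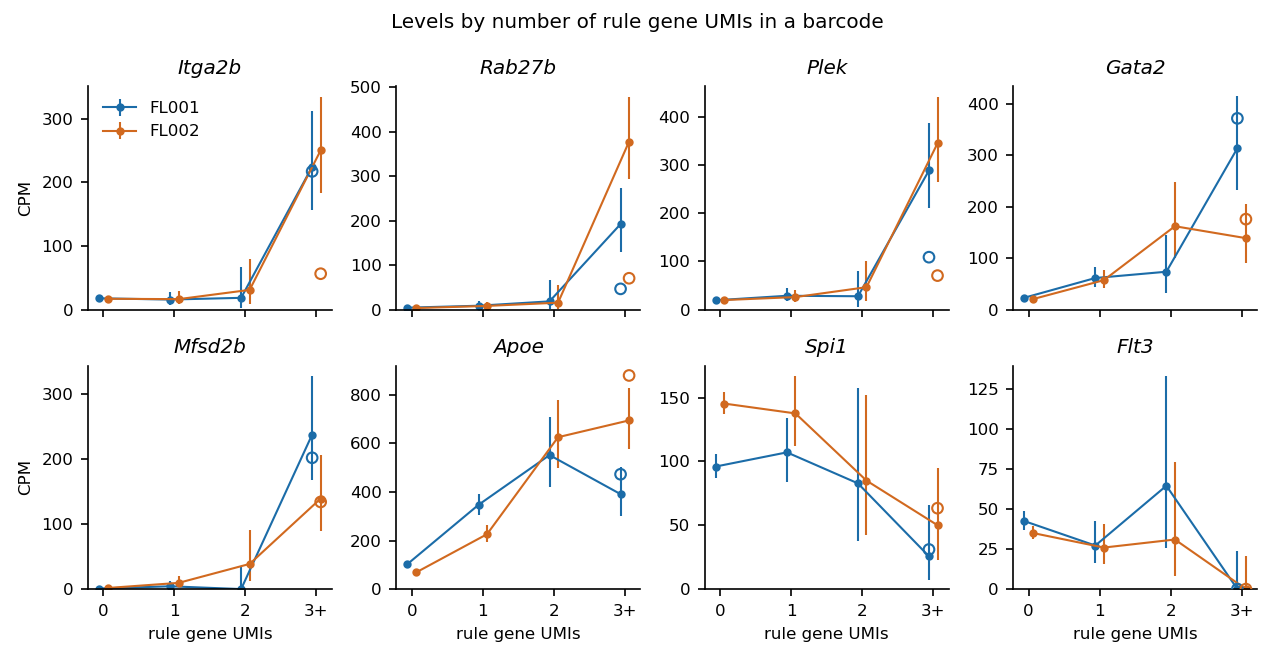
CPM by the number of rule UMIs (0, 1, 2, 3 or more) among barcodes that met the other limits, for FL001 and FL002, with 95% Poisson bars and open circles for the last step without members that held at least 20 *Pf4* UMIs. *Itga2b* lies between 15.7 and 30.9 CPM up to 2 rule UMIs and at 224 and 250 CPM at 3 or more, while *Gata2* is already at 61.4 and 57.2 CPM with 1.

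*Gata2* was spread over more of the steps, at 23.0, 61.4, 73.6 and 314 CPM in FL001 and 20.2, 57.2, 162 and 139 CPM in FL002. *Spi1* was at 96.0, 107, 82.8 and 25.6 CPM in FL001 and 145, 138, 85.0 and 50.03 CPM in FL002, with overlapping intervals at 2 and at 3 or more in both libraries. *Flt3*, a cytokine receptor gene of lymphoid and myeloid progenitors, was at 64.4 and 30.9 CPM with 2 and had no UMI with 3 or more in either library. The values at 2 rest on 7 UMIs in 2 cells and 4 UMIs in 3 cells. The upper limits at 3 or more were 23.65 and 20.51 CPM, and in FL002 the intervals overlapped (8.42 to 79.1 CPM at 2). With 2 rule UMIs *Itga2b* had an interval below that of 3 or more in both libraries, but in FL002 not without the members that held at least 20 *Pf4* UMIs (24.3 to 111 CPM at 3 or more). For *Gata2* in FL002 the intervals overlapped (100.4 to 248 and 89.9 to 205 CPM).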

How the data were processed

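Both libraries were deposited as raw UMI counts of 28692 genes for each of 737280 droplet barcodes, which the authors made from 10x reads. The submitters' processing notes name the genome build mm9, and the aligner version and annotation are not given in the sources used here. Library totals were 16320118 and 22651783 UMIs. Counts were summed over the cells of a group in each library and scaled to CPM. Intervals are exact Poisson (levels), exact binomial (shares) or exact conditional binomial (folds), at 95%, and cover counting error only. A group at 0 was set to a floor of 3 counts for folds. No doublet was removed. Scrublet in scanpy 1.11.5 marked 7 and 1 barcodes, so few that it has not worked. Genes were compared at 50 CPM or more and called at 2-fold in both libraries. Named genes are those of the rule, *Itga2b*, genes of 23 marker lists (404 of 408 found), the 15 with the largest smaller-library fold each way in each comparison and 10 each way between classes. The members, the lists and the limits were chosen with earlier results of these data known. Some genes that meet these rules are not reported here. Thinning drew 1500 UMIs per cell. The counting and fold steps were tested on simulated data. Promoters came from RefSeq tables on GRCm38.p6. Alternatives included other rule limits, thinning, CPM limits, doublet removal and leaving out libraries or member barcodes. Python 3.11.15, numpy 2.4.6, scipy 1.17.1 and pandas 2.3.3 were used.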

Additional observations from a re-analysis of the deposited data

How the results depend on the processing

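Of the 16 alternatives, 4 were chosen after the data had been seen. Among leading higher genes *Gnaz* alone changed direction, in FL001 against *Lmo2* or *Mef2c* barcodes, at 0.466-fold with *Cd3g* at 0, 0.423-fold with granulocyte genes under 5 and 0.987-fold without the barcode that held 23 of its 24 UMIs, each with at most 1 of its UMIs left in members. Of leading lower genes, 5 in the first comparison and 11 in the second passed above 1-fold in a library after thinning, where the floor of 3 counts applies to 31 members. The share of members, 1.6%, was 0.900% with at least 3 rule UMIs, 0.526% after thinning to 1500 UMIs, which left 31 members, and 1.44 to 1.96% with 1 library left out. Of genes higher and lower than in all other kept barcodes (90 and 111), and higher and lower than in *Lmo2* or *Mef2c* barcodes (71 and 54), at least 3 rule UMIs gave 136 higher in the first comparison and 120 higher and 100 lower in the second. Requiring *Cd3g* at 0 gave 44 higher in the second. The *Pf4*-highest barcode of FL001 held 1 *Cd3g* UMI and 5 UMIs of the granulocyte genes. It was therefore no longer a member with *Cd3g* at 0 or with granulocyte genes under 5. Leaving out that barcode alone gave 49 higher in the second. Thinning gave 350 higher and 41 lower in the first and 364 higher in the second, where 9 and 22 members were left and 50 CPM is less than 1 UMI in those of FL001 and under the floor of 3 counts in both libraries, so that these counts rest on very few UMIs. With 1 library left out the counts were 163 to 207, 184 to 222, 126 to 170 and 112 to 134. A limit of 20 CPM gave 188, 220, 151 and 113, and a limit of 100 CPM gave 50, 58, 34 and 24. Leaving out each gene's highest member barcode gave 56 and 35 higher, and leaving out members with at least 20 *Pf4* UMIs gave 57 and 39 higher. Of the 15 leading genes each way, 14 higher and 2 lower in the first comparison and 13 higher and 3 lower in the second kept their 2-fold difference under every alternative, and 3, 2, 2 and 3 also met the limit on CPM each time. The cause of these differences was not tested beyond the number of genes, cells or libraries that each alternative left. No paired analysis was possible because both libraries belong to 1 group. Depth limits the statements on zeros, since 3 UMIs are 111 CPM in the 1 FL001 member with at least 20 *Pf4* UMIs.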

Other observations

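Some genes outside the rule for naming genes differed in both libraries, and they are named after their values were seen. *Apoe*, apolipoprotein E, stood at 457 and 666 CPM in members against 64.7 and 44.1 CPM in all other kept barcodes and 172 and 112 CPM in *Lmo2* or *Mef2c* barcodes. Its 121 UMIs in 16 FL001 members and 206 UMIs in 33 FL002 members all lay outside the members with at least 20 *Pf4* UMIs. Along 0, 1, 2 and 3 or more rule UMIs *Apoe* was at 103, 347, 552 and 391 CPM in FL001 and 68.4, 226, 626 and 695 CPM in FL002, so that it was already high at 1 rule UMI.

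Further genes were higher in members than in all other kept barcodes. *Fermt3*, kindlin-3, was 2.49- and 3.55-fold higher, *Ilk*, integrin-linked kinase, 2.31- and 2.54-fold, *Lims1* 2.41- and 2.42-fold and *Rsu1* 2.61- and 2.64-fold. *Rap1b* was 3.33- and 2.93-fold higher, with 87 of its 127 FL001 UMIs in 1 barcode. *Tln1*, talin, was 2.76- and 1.85-fold higher and so was not counted. *Slc35d3* and *Rab38*, genes of platelet dense granules and related organelles, were 3.03- and 2.33-fold and 4.88- and 2.67-fold higher. *Ctse*, cathepsin E, was 5.17- and 4.98-fold higher and had no UMI in the members with at least 20 *Pf4* UMIs.

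*Lat*, an adaptor of both T-cell and platelet receptor signalling, stood at 166 and 204 CPM in members and 171 and 220 CPM in barcodes with at least 2 *Cd3g* UMIs, against 44.6 and 52.5 CPM in *Lmo2* or *Mef2c* barcodes.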
